A study of Mus musculus with 9 samples.

Results

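S100a8, S100a9 and 8 genes used as markers of microglia were followed through RNA-seq data of the alcohol-exposed fetal mouse cortex. The 10 genes were found by symbol among the 27095 loci of the deposited table, and each symbol named 1 locus. S100a8 and S100a9 were chosen by their FPKM, which is low in affected offspring, so their differences involving that group describe the choice and nothing is read from them. The microglial members, Cx3cr1, Csf1r, C1qa, C1qb, C1qc, Tyrobp, Trem2 and Aif1, were picked as markers.

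RNA came from 9 wild type fetuses, C57BL/6 in the labels and C57BL/6J in the methods, on gestational day 17 (GD17), 3 in each of 3 groups. Control dams received an intraperitoneal injection of lactated Ringer's on gestational day 7, and the other dams received 2.9 g/kg EtOH by the same route at the same stage. The EtOH-exposed affected group holds fetuses scored with defects of the eye and of cortical patterning, and the EtOH-exposed unaffected group holds those that lacked such defects. These groups therefore differ in outcome and share the treatment. The methods give the tissue as dissected cortex, whereas the labels give fetal brain, and how fetuses were spread over litters is not given in the sources used here. The table holds 1 FPKM (fragments normalised to transcript length and sequencing depth) per group and locus, as the authors' value over 3 animals. No value therefore carries an error between animals, no test was made, and the depth of each library is unknown. Differences are log2 ratios of FPKM + 0.1 and are set beside those of the 15548 loci with a mean FPKM of at least 1, which include all 10 genes. In bulk tissue, fewer cells of a type and less RNA per cell cannot be told apart.

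Microglia are the resident macrophages of the brain. They descend from yolk sac progenitors, depend on the receptor CSF1R for survival, clear dying cells and prune synapses, in part through the complement protein C1q. S100A8 and S100A9 form calprotectin, a calcium-binding protein abundant in neutrophils, which circulate in blood and are rare in healthy brain tissue. As a check of the tissue, the cortical transcription factor genes Emx1 and Neurod6 had FPKM values of 37.0 (control), 39.0 (unaffected) and 37.0 (affected), and 409 (control), 378 (unaffected) and 416 (affected). As a check of the cell type, Tmem119, a marker of microglia, had 1.78, 1.83 and 1.60 in the same order. Of the neutrophil granule genes, Ngp, Camp, Ltf, Lcn2 and Mpo lay between 0.0160 and 0.585 FPKM in every group and Elane, whose locus shares coordinates with others, was listed at 0. Prtn3, whose locus has the same coordinates as that of Elane and is therefore uncertain, had 4.17, 4.02 and 4.001.

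Sequence before the start site is shown for S100a8 and S100a9 and for C1qb and C1qc, because these are neighbours on a chromosome whose levels are compared below. S100a8 (chromosome 3 of mm10, 90669071 to 90670034) and S100a9 (90692633 to 90695691) have 22598 bases between them. C1qb (136880134 to 136886177), C1qc (136889802 to 136892914) and C1qa (136895916 to 136898844) span 18711 bases of chromosome 4. The windows are the 250 bases before the RefSeq start (GRCm38.p6), 5′ to 3′ on the strand of the gene. Both strands were searched for GAGGAAGT, bound by the myeloid factor PU.1, and TTGCNNAA, a core bound by C/EBP factors, and capitals mark matches.
S100a8, chr3:90668821-90669070, plus strand: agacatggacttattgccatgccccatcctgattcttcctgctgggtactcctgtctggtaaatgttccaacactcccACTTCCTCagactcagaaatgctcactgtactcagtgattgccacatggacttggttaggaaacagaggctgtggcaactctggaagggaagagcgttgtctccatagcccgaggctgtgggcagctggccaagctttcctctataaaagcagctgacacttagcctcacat
S100a9, chr3:90695722-90695971, minus strand: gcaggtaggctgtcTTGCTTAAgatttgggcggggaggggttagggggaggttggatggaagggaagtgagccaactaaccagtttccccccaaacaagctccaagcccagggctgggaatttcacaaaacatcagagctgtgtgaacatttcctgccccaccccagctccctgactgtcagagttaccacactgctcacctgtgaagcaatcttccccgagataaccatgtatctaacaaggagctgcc
C1qb, chr4:136886201-136886450, minus strand: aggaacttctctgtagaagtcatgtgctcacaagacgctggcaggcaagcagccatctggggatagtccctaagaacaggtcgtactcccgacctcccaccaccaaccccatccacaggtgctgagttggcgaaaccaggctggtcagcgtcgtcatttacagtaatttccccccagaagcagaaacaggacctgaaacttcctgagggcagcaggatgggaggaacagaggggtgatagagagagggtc
C1qc, chr4:136892915-136893164, minus strand: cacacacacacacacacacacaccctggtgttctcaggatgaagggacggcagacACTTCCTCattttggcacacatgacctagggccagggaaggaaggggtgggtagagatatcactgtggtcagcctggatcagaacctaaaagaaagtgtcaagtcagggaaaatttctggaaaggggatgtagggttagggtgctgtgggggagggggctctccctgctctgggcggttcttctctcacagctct
Relative to the start, the PU.1 letters lay at -172 to -165 in S100a8 and at -195 to -188 in C1qc, on the opposite strand in both. The C/EBP letters lay at -236 to -229 in S100a9, and no 2 matches overlapped. The windows of C1qb, Cx3cr1, Trem2 and Aif1 held neither, and C1qa, Tyrobp and Csf1r were not searched. Of 32851 such windows in RefSeq, 2.44% hold GAGGAAGT and 9.56% hold TTGCNNAA. A match describes letters and not a bound site.

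S100a8 and S100a9 were lowest in affected and highest in unaffected offspring. S100a8 had FPKM values of 4.89 (control), 7.89 (unaffected) and 2.17 (affected), and S100a9 had 3.62, 5.41 and 1.42 in the same order. For both genes, control lay between the exposed groups. The log2 difference of affected minus control was -1.14 for S100a8 and -1.29 for S100a9. Affected minus unaffected gave -1.82 and -1.86. Unaffected minus control gave 0.68 and 0.56. The FPKM ratio of S100a8 to S100a9, whose products pair with each other, was 1.35 (control), 1.46 (unaffected) and 1.53 (affected).

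**Figure D1:**
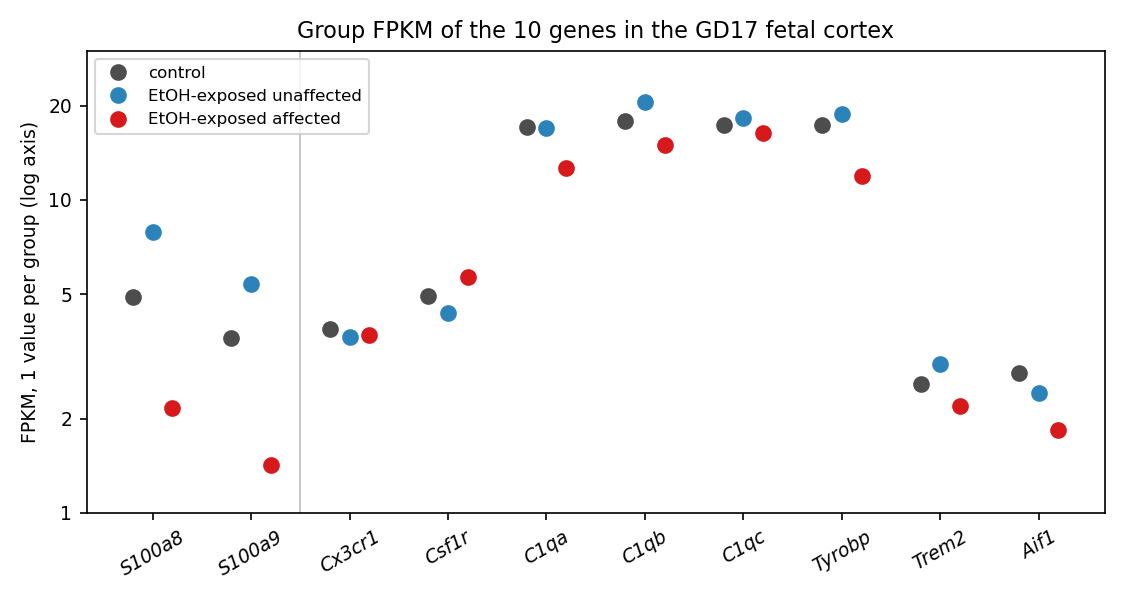
FPKM of the 10 genes (log axis), 1 point per group as the authors' value over 3 animals, with no error bar because values of single animals were not used. S100a8 and S100a9, left of the grey line, have affected values of 2.17 and 1.42, below their control and unaffected values.

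By the distance between pairs of log2 differences against control, the loci nearest to S100a9 were Snord17, a small nucleolar RNA gene, at 0.15, S100a8 at 0.19 and an unnamed locus on chromosome 13 (44729433 to 44729785) at 0.19. Snord17 had FPKM values of 1.27, 2.06 and 0.418. The measure rests on 3 group values per locus and includes the affected difference for which S100a8 and S100a9 were chosen, so their nearness restates that choice.

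C1q, which starts the classical complement pathway, gave the members with the highest levels together with Tyrobp. C1qa had FPKM values of 17.1 (control), 17.0 (unaffected) and 12.6 (affected). C1qb had 17.8, 20.5 and 15.04 in the same order, and C1qc had 17.4, 18.2 and 16.3. The affected value was the lowest for each gene. Against control, the log2 difference of affected offspring was -0.43 for C1qa, -0.24 for C1qb and -0.09 for C1qc. Against unaffected offspring it was -0.42, -0.44 and -0.16. The genes, whose products assemble in equal numbers, had close control levels, and the ratio of C1qc to C1qb was 0.977 (control), 0.889 (unaffected) and 1.09 (affected). That of C1qa to C1qb was 0.957 (control), 0.827 (unaffected) and 0.841 (affected). Nearest to C1qb in pattern were Lamtor1, an unnamed locus on chromosome 7 (27806112 to 27856774) and Fam162a, at distances of 0.00284, 0.00388 and 0.00761.

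Tyrobp had the lowest affected values relative to unaffected offspring among the microglial members. It encodes DAP12, the adaptor through which TREM2 signals, and lies on chromosome 7 (30413788 to 30417579). Its FPKM values were 17.3 (control), 18.9 (unaffected) and 11.97 (affected). The log2 difference of affected offspring was -0.53 against control and -0.65 against unaffected, and 3.96% and 3.40% of all loci were lower. Hcst, which encodes the adaptor DAP10 and lies 132 bases from Tyrobp, had 0.104, 0.290 and 0.196. Trem2, a lipid-sensing receptor gene on chromosome 17 (48346401 to 48352276), had FPKM values of 2.59 (control), 2.98 (unaffected) and 2.197 (affected). Its log2 difference was -0.23 against control and -0.42 against unaffected. The FPKM ratio of Tyrobp to Trem2 was 6.70 (control), 6.33 (unaffected) and 5.45 (affected).

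Csf1r and Cx3cr1 did not have their lowest value in affected offspring. Csf1r, on chromosome 18 (61105572 to 61131139), encodes the receptor for CSF1 and IL-34 and had FPKM values of 4.94 (control), 4.34 (unaffected) and 5.67 (affected). It was highest in the affected group, with a log2 difference of 0.20 against control and 0.38 against unaffected. Cx3cr1, the fractalkine receptor gene on chromosome 9 (120048683 to 120068296), had 3.86, 3.65 and 3.69 in the same order, and its log2 differences were -0.06 and 0.01. Aif1, on chromosome 17 (35170992 to 35176001), encodes the actin-binding protein IBA1. It had 2.79 (control), 2.41 (unaffected) and 1.83 (affected), with log2 differences of -0.58 and -0.38.

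A difference of at least 1.5-fold served to count the members. In affected against control offspring, S100a8 and S100a9 were lower past it, beside 3.01% of all loci, and their selection fixes this count. None of the 8 microglial members was past it in either direction, and 3.42% of all loci were higher. Aif1, at -0.58, was just short of the fold and passed it with a pseudocount of 0 (-0.61) and after centring on the median of all loci (-0.60). In affected against unaffected offspring, S100a8 and S100a9 were lower past the fold, and their selection fixes this too. Of the 8 microglial members, 1 was lower past it, Tyrobp, beside 4.91% of all loci. No member was higher past it, beside 6.88%. In unaffected against control offspring, S100a8 was higher past it, beside 2.46% of all loci, and no member was lower, beside 3.08%. The median log2 difference of the microglial members was 0.03 for unaffected minus control, -0.24 for affected minus control and -0.40 for affected minus unaffected, where all loci had medians of 0.01, 0.02 and 0.01. These comparisons share groups, so they are not independent.

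**Figure D2:**
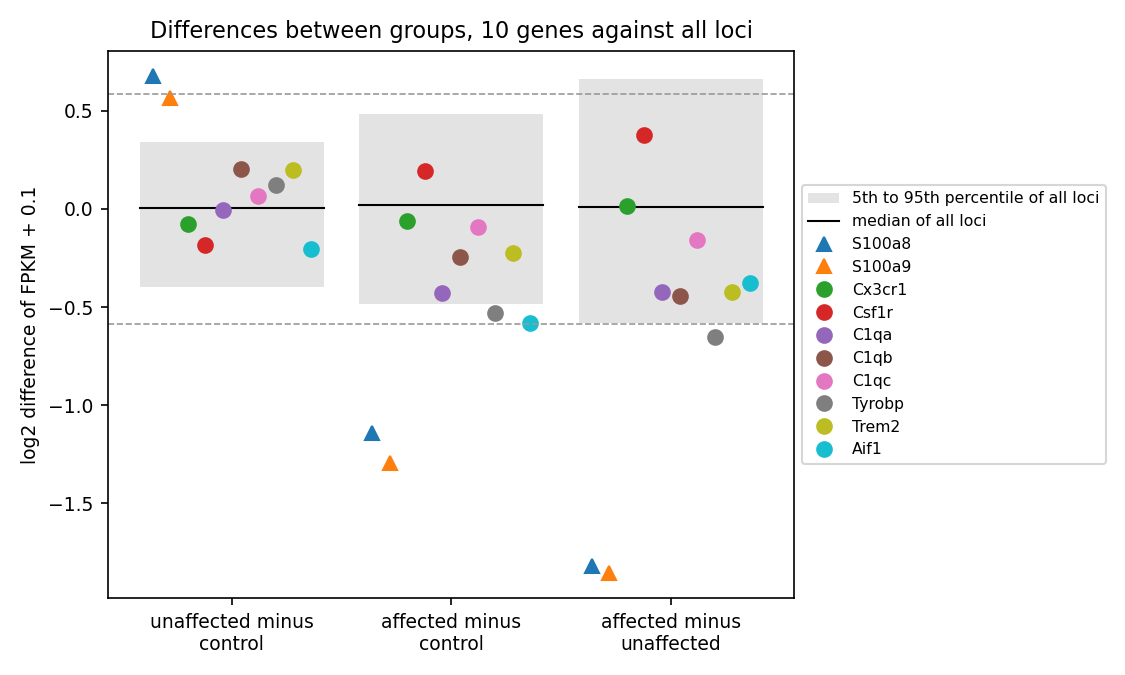
Log2 difference of FPKM + 0.1 of each gene in 3 comparisons (triangles, S100a8 and S100a9; circles, microglial members), with the median and the 5th to 95th percentile of 15548 loci and dashed lines at 1.5-fold. Tyrobp, at -0.65 for affected minus unaffected, is the only circle beyond a dashed line.

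Differences also varied with transcript length. Over 12559 loci with a length, Spearman's rho of length with the log2 difference was -0.40 for unaffected minus control, 0.44 for affected minus control and 0.50 for affected minus unaffected, across genes that are not independent. The median transcript was 486 nt for S100a8, 515.5 nt for S100a9 and 580.5 nt for Tyrobp, against 2323 nt for Csf1r and 3753 nt for Cx3cr1. Loci of similar length to Tyrobp had a median of -0.28 for affected minus unaffected, and those of similar length to Cx3cr1 had 0.15. With these medians subtracted, that difference was -0.38 for Tyrobp, -0.18 for C1qa, -0.21 for C1qb and 0.04 for C1qc. It was -0.19 for Trem2, -0.13 for Aif1, -0.13 for Cx3cr1 and 0.39 for Csf1r. No microglial member was then past 1.5-fold, and their median was -0.16. S100a8 and S100a9 had -1.55 and -1.58. The part of length in these differences was not tested.

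**Figure D3:**
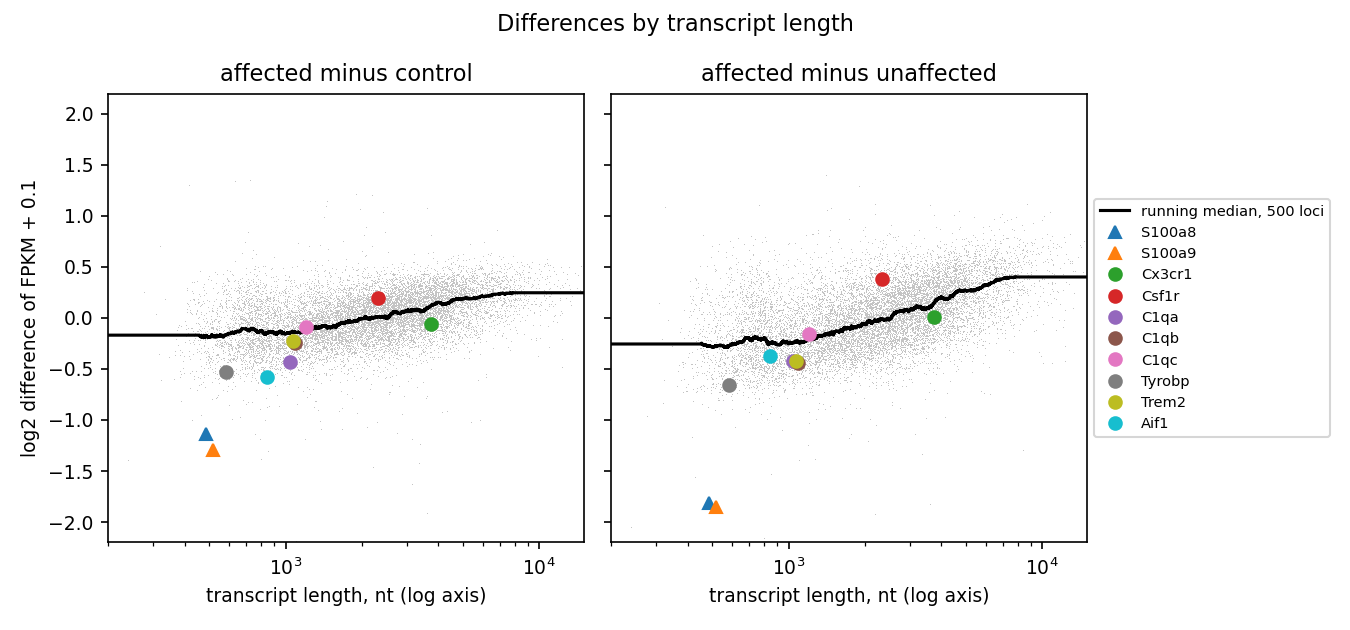
Log2 difference of FPKM + 0.1 against transcript length in nt (log axis), with 12559 loci in grey, the running median over 500 loci as a line and the members in colour. The line rises with length in both comparisons, and S100a8 and S100a9 lie below it.

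Further genes of microglia gave 13 loci at the minimum, and none was past 1.5-fold in any comparison. Their median was -0.15 for affected minus control and -0.20 for affected minus unaffected. Gpr34, a lysophospholipid receptor gene, had FPKM values of 1.63 (control), 1.52 (unaffected) and 1.13 (affected). Sall1, a transcription factor gene that neural progenitors also express, is split over 2 loci with the same coordinates, which had 4.32, 4.97 and 3.40, and 9.38, 9.29 and 11.97, in opposite directions. Its level is therefore uncertain.

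Genes shared by myeloid cells gave 20 loci, and their median was -0.11 for affected minus control and -0.26 for affected minus unaffected. For affected minus control, 1 locus, Cd52, was lower past 1.5-fold, beside 3.01% of all loci, and none was higher, beside 3.42%. For affected minus unaffected, 3 were lower past 1.5-fold, beside 4.91% of all loci, and none was higher, beside 6.88%. Cd52, a leukocyte surface glycoprotein gene, had FPKM values of 2.41 (control), 2.60 (unaffected) and 1.34 (affected). Cyba, for a subunit of the phagocyte NADPH oxidase, had 12.8, 14.2 and 8.95 in the same order, and the immunoglobulin receptor gene Fcgr3 had 6.03, 6.77 and 4.39. With the length trend removed, the median of this list was -0.09, and Cd52 at -0.64 was still past the fold while Cyba at -0.46 and Fcgr3 at -0.44 were not.

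Ligands, receptors and adaptors of the members gave 9 loci, none past 1.5-fold, with medians of 0.16 and 0.17 for affected offspring against control and unaffected. Csf1, a ligand of CSF1R, had FPKM values of 2.68 (control), 2.61 (unaffected) and 3.28 (affected). Tgfb1, a growth factor that maintains microglia, had 2.59, 2.41 and 3.06 in the same order, and both were highest in affected offspring, as was Csf1r. Il34, for the other ligand of CSF1R, went the other way, with 1.35, 1.45 and 1.16, lowest in affected offspring. Of the 9 loci, 3 were below zero in each of these comparisons. Apoe, for a lipid carrier that binds TREM2, had 171, 171 and 119 and was lowest there. The other complement genes gave 6 loci, none past 1.5-fold, with medians of -0.04 and -0.08. The complement regulator genes Cr1l, Cd55 and Susd4 had 18.9, 21.3 and 15.4, then 1.90, 1.74 and 1.52, then 11.7, 11.9 and 12.99. C3, on which the pathway started by C1q converges, was at 0.185 FPKM or below.

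Genes of phagocytosis and of the early postnatal microglial state gave 10 loci, with medians of 0.03 and 0.08, and 4 of them were below zero in each of these comparisons. Igf1, a growth factor gene, was the only one past 1.5-fold, beside 3.01% and 4.91% of all loci that were lower past it, with FPKM values of 3.08 (control), 2.74 (unaffected) and 1.47 (affected) and a log2 difference of -1.02 against control. Spp1, which encodes osteopontin, had 6.40, 5.56 and 4.34 in the same order, and the tetraspanin gene Cd9 had 48.0, 52.8 and 36.5. Of 14 cytokine and chemokine loci, 2 reached the minimum, with medians of -0.05 and -0.05. Cxcl12 had 23.8, 24.1 and 23.2 and Nfkbia, an inhibitor of NF-kappaB, 13.7, 13.6 and 13.3. The inflammatory cytokine genes Il1b and Tnf were at 0.0713 and 0.0177 FPKM or below.

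**Figure D4:**
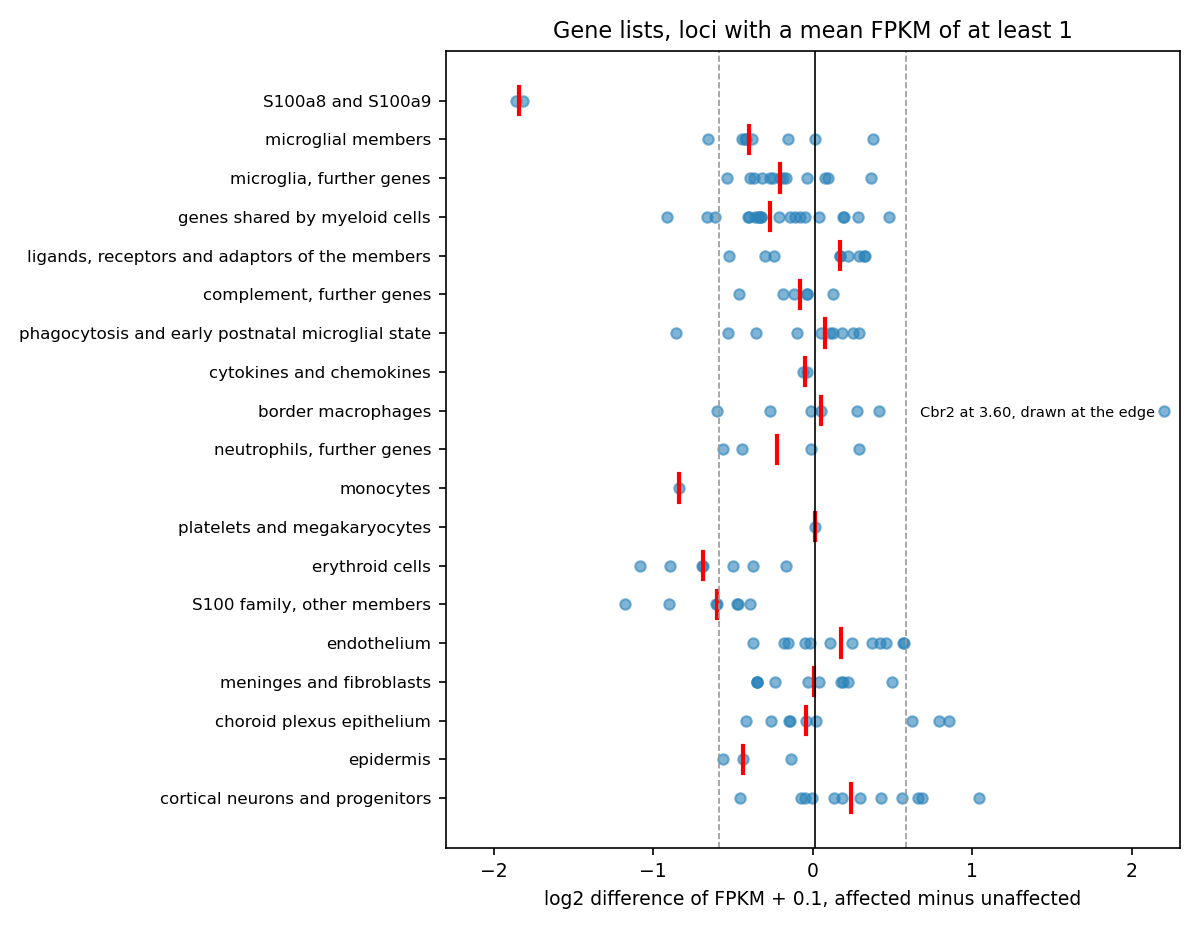
Log2 difference of FPKM + 0.1 for affected minus unaffected, 1 point per locus with a mean FPKM of at least 1, with a red bar at each list's median, a black line at the median of all loci and dashed lines at 1.5-fold. The median is -0.40 for the microglial members, -0.68 for erythroid loci and -0.60 for other S100 genes.

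Other neutrophil genes were mostly below the minimum. Of 26 loci, 21 had a mean FPKM above 0 and below 1, with a summed FPKM of 4.15 (control), 5.15 (unaffected) and 2.29 (affected). For affected minus control, 19 of them were below zero and 7 lower past 1.5-fold, beside 46.9% and 4.74% of 7804 loci at this level. For affected minus unaffected, 18 were below zero and 7 past the fold, beside 47.6% and 5.37%. Of other blood cell lists, 3 of 5 mast cell loci and 2 of 4 monocyte loci at this level were also lower past the fold in each of these comparisons, while none of 6 platelet and 7 lymphocyte loci was in either, and of 2 erythroid loci 0 was against control and 1 against unaffected. The 4 loci at the minimum had medians of -0.14 and -0.23. Among them, the annexin gene Anxa1 had FPKM values of 4.47 (control), 3.97 (unaffected) and 2.66 (affected), Olfm4 had 1.41, 1.65 and 1.19 and the gelatinase gene Mmp9 had 6.27, 5.86 and 7.19, highest in affected offspring. Lyz2, the lysozyme gene of monocytes, macrophages and neutrophils and the only monocyte locus at the minimum, had 4.76, 5.60 and 3.09, with a log2 difference of -0.61 against control.

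Red cell genes are given beside S100a8 and S100a9 as a measure of blood in the tissue. A joined locus of beta globin genes had FPKM values of 5357 (control), 6924 (unaffected) and 3277 (affected), and a joined locus of alpha globin genes had 199.8, 263 and 163 in the same order. All 7 erythroid loci at the minimum were higher in unaffected than in control offspring, and all were lower in affected than in unaffected offspring, with medians of 0.41 and -0.68, where 48.3% and 48.7% of all loci were below zero in these comparisons. With the length trend removed, these medians were 0.38 and -0.48, and the globin gene Hba-x was at 0.03 for affected minus unaffected. In affected against control offspring, 4 of the 7 loci were lower, 1 past 1.5-fold, beside 3.01% of all loci. Another 2 were higher past the fold, beside 3.42% of all loci. These 2 were the embryonic globin genes Hba-x, with 1.33, 2.58 and 2.29 FPKM, and Hbb-y, with 0.953, 3.34 and 2.56. The median was -0.09, and 0.39 without joined loci. Per 1000 FPKM of the beta globin locus, S100a8 was at 0.913 (control), 1.14 (unaffected) and 0.661 (affected), and S100a9 at 0.676, 0.781 and 0.433. The part of blood content in the levels of S100a8 and S100a9 was not tested.

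**Figure D5:**
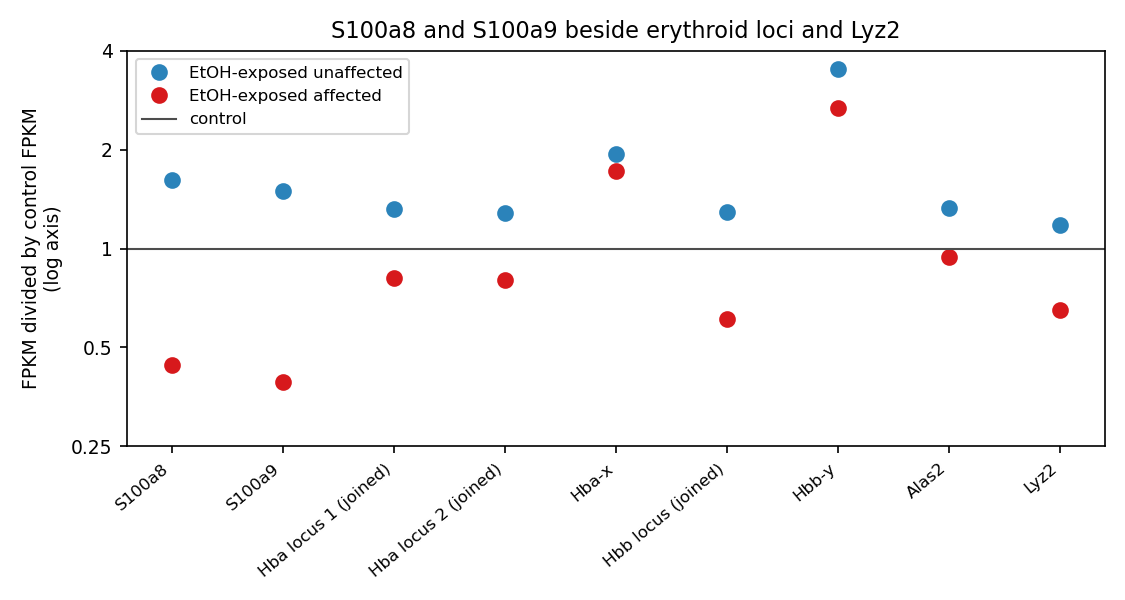
FPKM divided by control FPKM (log axis) for S100a8, S100a9, 6 erythroid loci with a mean FPKM of at least 1 and Lyz2, 1 point per exposed group and a line at control. All unaffected points lie above the line, and affected points lie below it for S100a8, S100a9, the beta and alpha globin joined loci, Alas2 and Lyz2.

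Other S100 genes gave 7 of 14 loci at the minimum, and all of these were lower in affected than in control and unaffected offspring, with medians of -0.38 and -0.60, where 47.0% and 48.7% of all loci were below zero. Of the 7 S100 loci under the minimum, 4 and 3 were below zero. S100a6, a calcium-binding protein gene, had FPKM values of 9.36 (control), 9.57 (unaffected) and 5.09 (affected). S100a10, for a partner of annexin A2, had 154, 152 and 99.9 in the same order, and S100a4 had 0.872, 1.58 and 0.646. The transcripts of the 7 loci at the minimum have 417 to 879 nt, and with the length trend removed the medians were -0.21 and -0.33.

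Markers of other cell types are given for the makeup of the tissue, with medians of affected minus control and affected minus unaffected. Border macrophages, which share Csf1r and C1q with microglia, gave 7 loci with medians of 0.05 and 0.05, which were -0.14 and -0.09 with the length trend removed. Pf4 had FPKM values of 11.3 (control), 12.98 (unaffected) and 8.55 (affected) and Stab1 had 1.93, 1.84 and 2.50. For affected minus unaffected, Pf4 at -0.60 was lower and Cbr2 at 3.60 higher past 1.5-fold, beside 4.91% and 6.88% of all loci. Endothelial loci had 0.17 and 0.18, with Cdh5 at 7.36, 6.59 and 9.83, Kdr at 5.02, 4.76 and 7.09 and Flt1 at 3.64, 3.20 and 4.44. Of the 12 endothelial loci, 4 were below zero against control and 5 against unaffected, among them Cldn5 at 36.9, 38.4 and 33.9, and with the length trend removed the difference of affected minus unaffected went from 0.56 to 0.24 for Kdr and from 0.46 to 0.09 for Flt1. Meningeal and fibroblast loci had -0.14 and 0.01, with Pdgfra at 5.77, 4.89 and 6.93, Lum at 5.54, 6.04 and 4.73 and Slc6a13 at 8.36, 7.89 and 6.18. None of the endothelial or meningeal loci was past 1.5-fold. Choroid plexus loci had 0.20 and -0.04, and 3 of 9 were higher past the fold in affected offspring in each comparison, beside 3.42% and 6.88% of all loci, with Krt8 at 1.23, 1.44 and 2.67, Krt18 at 2.41, 2.98 and 5.23 and Clic6 at 4.48, 5.36 and 8.31. Another 5 choroid plexus loci were below zero for affected minus unaffected. Epidermal loci had -0.31 and -0.44, with Krt1 at 15.6, 17.1 and 11.6, Krt10 at 17.9, 19.6 and 14.4 and Lor at 2.58, 2.50 and 2.27, while Krt5 and Krt14 were at 0.0837 FPKM or below. The 5 epidermal loci below the minimum were all higher in affected offspring than in the other groups, and over all 8 loci the medians were 0.24 and 0.09, of opposite sign. Cortical neuron and progenitor loci had 0.27 and 0.24, with Bcl11b at 32.7, 28.2 and 45.5 and Tbr1 at 75.7, 62.1 and 98.3. For affected minus unaffected, 3 of 12 were higher past 1.5-fold, beside 6.88% of all loci, and 4 were below zero. Against control, none was past the fold and 2 were below zero. The only platelet locus at the minimum joins Gp1bb with Sept5 and had 254, 254 and 256. Lymphocyte and mast cell genes were all below the minimum, with mean FPKM values of up to 0.342 and 0.727.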

How the data were processed

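RNA of 9 fetuses was sequenced after TruSeq library preparation. The methods name STAR and also Bowtie with TopHat for alignment to mm10, and the submitters' processing notes list Bowtie2 2.2.4.0, Cufflinks and Cuffdiff. The authors deposited 1 FPKM per group and locus over 3 animals, for 27095 loci (3871 unnamed, 351 joined). The table's fold changes, test statistics and significance values of the authors' comparisons were not used. Without values of single animals, log2 differences of FPKM + 0.1 were computed with no test. Starts were raised by 1 to count from 1. Transcript lengths were medians over protein-coding transcripts of GENCODE M21, found for 80.8% of loci at the minimum, and the trend was a running median over 500 loci. Of 262 symbols in 19 further lists, 3 were matched to no locus and not analysed here. Members and lists were chosen with earlier results of these data known. The genes named were all members, up to 3 genes per list with a mean FPKM of at least 1 and the largest absolute difference of affected minus unaffected, and the 3 loci nearest to S100a9 and to C1qb. Some genes that this rule names are not reported here. Emx1, Neurod6, Tmem119, Hcst, C3, Il1b, Tnf, Krt5, Krt14 and S100z were named after their values were seen. So were Alas2, Hba-x, Hbb-y, Cldn5, Prtn3, Il34 and the low neutrophil genes. Some loci share coordinates with others (Sall1, Gpr34, Susd4, Nfkbia, Stab1 and the beta globin locus), so their levels are uncertain. The alternatives were other pseudocounts, centring, removal of the length trend, a 2-fold limit, other FPKM minimums and leaving out joined loci. The calculations were tested on simulated data. Python 3.11.15, pandas 2.3.3 and NumPy 2.4.6 were used.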

Additional observations from a re-analysis of the deposited data

How the results depend on the processing

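No paired analysis was possible because the deposited columns carry no replicate numbers. For the same reason no animal could be left out. The counts of members past 1.5-fold and the medians of the 8 microglial members were recomputed with a pseudocount of 0 or 1, after centring on the median of all loci, and with the length trend removed, and the counts also at 2-fold. No member past 1.5-fold changed direction. With the length trend removed, values near zero changed sign: C1qc went from 0.07 to -0.01 for unaffected minus control, from -0.09 to 0.03 for affected minus control and from -0.16 to 0.04 for affected minus unaffected, Cx3cr1 from 0.01 to -0.13 for the latter, and the median of the microglial members for unaffected minus control from 0.03 to -0.02. The count of members higher in unaffected than in control offspring was 1 at 1.5-fold and 0 at 2-fold. The median of the microglial members for affected minus unaffected, -0.40 as reported, was -0.29 with a pseudocount of 1 and -0.16 with the length trend removed. The other counts of members stayed within 1.5 times and the other medians of the microglial members within 0.1 on the log2 scale. This tolerance was set because values of single animals were not given and the authors' test statistics were not used. Within that range, the count of members lower in affected than in control offspring was 3 in place of 2 with a pseudocount of 0 and after centring, through Aif1. The count lower in affected than in unaffected offspring was 2 in place of 3 with the length trend removed and at 2-fold, through Tyrobp. The medians of the other lists depended more on the loci included. With no minimum, 14 of 51 moved by more than 0.1 and 10 changed sign, with a minimum of 5, 11 of 48 moved and 9 changed sign, and without joined loci 3 of 48 moved and 1 changed sign. For affected minus control, the neutrophil median went from -0.14 to 0.19 at a minimum of 5, where Mmp9 alone was left, the erythroid median from -0.09 to 0.39 without joined loci, and the phagocytosis median from 0.03 to -0.18 with no minimum. With the length trend removed, the medians for affected minus unaffected also changed sign for phagocytosis (0.08 to -0.03), border macrophages (0.05 to -0.09), meninges (0.01 to -0.15) and choroid plexus (-0.04 to 0.06). Some lists have no locus with a mean FPKM of at least 5 and gave no value there. The unknown depth limits what can be said of loci near 0.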

Other observations

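Cbr2, a carbonyl reductase gene used as a marker of border macrophages (chromosome 11, 120729485 to 120732021), had FPKM values of 0.641 (control), 0.444 (unaffected) and 6.49 (affected), a log2 difference of 3.15 for affected minus control. The other loci of that list at the minimum lay between -0.39 and 0.36 in this comparison. S100z (chromosome 13, 95477301 to 95478655) was listed at 0 in control and unaffected offspring and had 1.28 FPKM in affected offspring. With 1 value per group, how these levels were spread over the 3 animals is unknown.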
